A study of Mus musculus with 2 samples.

Results

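The Rab genes of mouse encode small GTPases that direct membrane traffic. Members were chosen by symbol: Rab, a number and at most 1 further letter. The rule found 57 of the 22711 genes listed in each file, and 4 of them lie on the X chromosome. Their RNA was measured by allele-resolved, Smart-seq2 RNA sequencing of polyadenylated RNA in cultured immortal mouse embryonic fibroblasts (MEF) that carry 1 genome of C57BL/6N, written B6, and 1 of PWK/PhJ, written PWK. The lines are named for their inactive X (Xi). In the PWK-Xi line it is the PWK copy, and the strain is given as C57BL/6N X PWK/PhJ. In the B6-Xi line it is the B6 copy, and the strain is given as PWK/PhJ X C57BL/6N. Each line had 1 library, so every value describes a single library and no difference below had a replicate check or a test. The sources used here do not say whether a line was derived from a single clone.

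A Rab protein cycles between a GDP-bound form held in the cytosol and a GTP-bound form on a membrane, where it recruits tethers, motors and coats. Guanine nucleotide exchange factors (GEF) switch Rabs on, GTPase-activating proteins (GAP) switch them off, and a lipid anchor added to the C-terminus fixes them to the membrane. Each Rab marks its own compartments, so the set that a cell expresses covers its secretory, endocytic and lysosomal routes. Fibroblasts use these routes to secrete matrix, to take up and recycle integrins and to degrade cargo in lysosomes.

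The values are FPKM (fragments per kilobase of transcript, scaled to the size of the library), with 1 value per allele. This scale adjusts for transcript length. The method that split reads between the strains is not given, so how far levels of different genes can be compared is uncertain. This limit applies to the order of levels, the totals of groups and the percentages within families below. A gene's level is the sum of both alleles, and its B6 share is the B6 value as a percentage of that sum. Read depth is unknown. Above 0 were 12907 genes in PWK-Xi and 10127 in B6-Xi. Of 14 fibroblast markers, 10 reached 5 FPKM in PWK-Xi and 10 in B6-Xi, with summed levels of 2993 and 13342 FPKM, of which S100a4 alone gave 2321 and 13006 FPKM. Vim, a defining marker, was listed at 0 in both lines, and Lum and Fap were listed at 0 in B6-Xi. Of the epithelial, endothelial, immune, neural and melanocyte markers listed, only Tubb3 reached 5 FPKM, at 5.32 FPKM in PWK-Xi against 2.91 FPKM in B6-Xi. The summed levels in PWK-Xi and B6-Xi were 3.81 and 2.68 FPKM for epithelial, 0.205 and 0.0476 FPKM for endothelial, 3.55 and 1.56 FPKM for immune, 5.36 and 2.91 FPKM for neural and 4.26 and 0.714 FPKM for melanocyte markers. Of these lists, 2 of 8, 4 of 6, 3 of 6, 3 of 5 and 4 of 6 markers were listed at 0 in PWK-Xi, and 7, 5, 4, 4 and 5 in B6-Xi. Epcam, Cdh5, Cd3e, Rbfox3 and Tyr were at 0 in both lines, while Mitf had 4.07 FPKM in PWK-Xi and 0 in B6-Xi, Cd68 had 3.25 and 1.39 FPKM, and Krt19 had 0.782 and 2.68 FPKM. As Vim was also at 0, such zeros carry little weight. The part of other cell types in the results below was not tested.

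The first question was which Rab genes these fibroblasts expressed. In RNA of a whole culture, fewer cells with a transcript and less of it per cell cannot be told apart. In PWK-Xi 36 members reached 1 FPKM (63.2%, against 39.8% of all genes), and in B6-Xi 39 did (68.4%, against 35.7%). Over both lines, 29 members reached 5 FPKM in at least 1 line, beside 5490 of all 22711 genes. Another 11 members stayed between 1 and 5 FPKM, and 17 were under 1 FPKM in both. The members together had 716.5 FPKM in PWK-Xi and 694.1 FPKM in B6-Xi, which was 0.280% and 0.243% of the summed FPKM of all genes. The 10 most abundant members of a line held 62.6% of the Rab total in PWK-Xi and 68.1% in B6-Xi, and 7 genes were among those 10 in both lines. By the mean of both lines the leading 10 were Rab2a, Rab1b, Rab1, Rab34, Rab11a, Rab7, Rab14, Rab8a, Rab31 and Rab10. The order of levels was similar in the lines, with a Spearman rho of 0.87 across the 53 members above 0 in a line, beside 0.85 across 13133 such genes; genes are not independent replicates, and the points share 2 libraries.

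**Figure D1:**
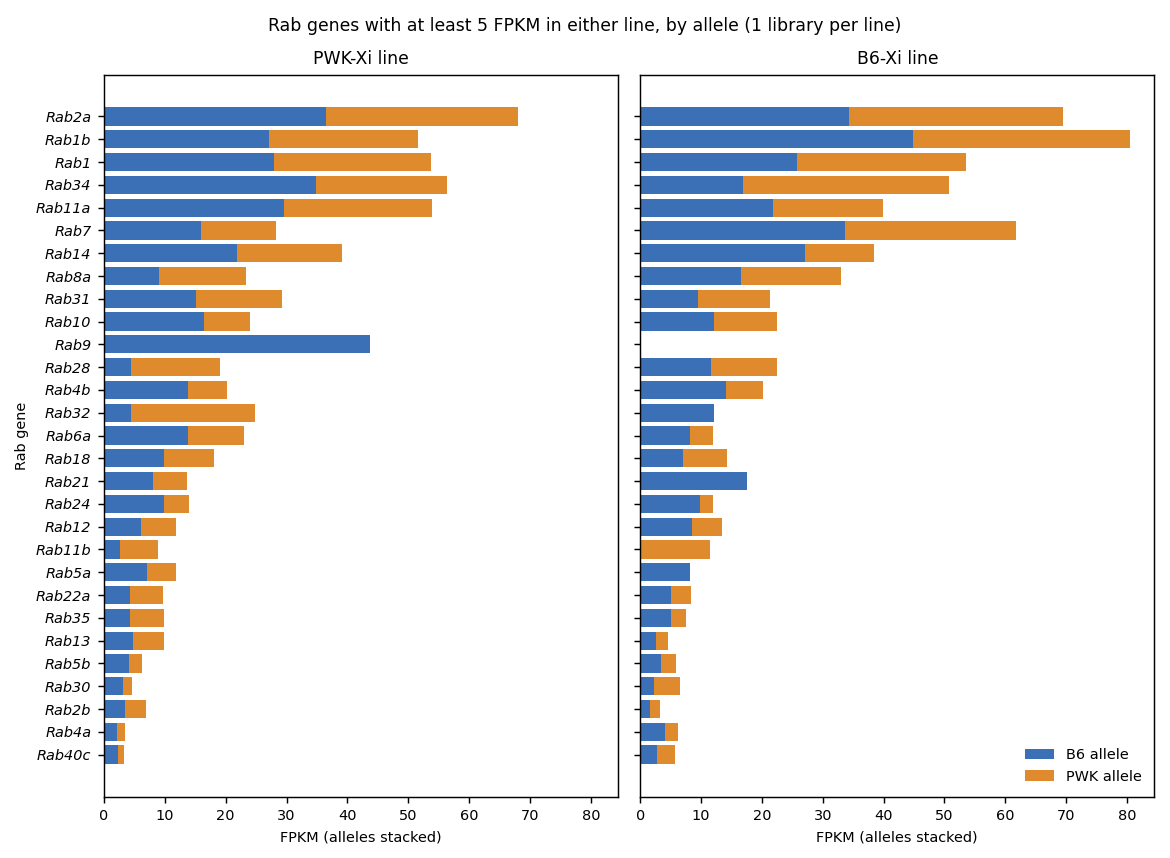
Levels of the 29 Rab genes that reached 5 FPKM in a line, in the PWK-Xi line (left) and the B6-Xi line (right), with 1 library each; bars stack the FPKM of the B6 allele (blue) and of the PWK allele (orange), and genes are ordered by their mean over the lines. Rab9 has 43.7 FPKM from the B6 allele in PWK-Xi and no bar in B6-Xi, and Rab32, Rab21 and Rab5a have only a B6 bar in B6-Xi.

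Under 1 FPKM in both lines were Rab3b, Rab3c, Rab6b, Rab9b, Rab15, Rab17, Rab19, Rab25, Rab26, Rab27a, Rab33a, Rab36, Rab37, Rab38, Rab39, Rab42 and Rab44. Several of the low members are known from specialised cells. Of the regulated secretion Rabs (Rab3a to Rab3d, Rab26, Rab27a, Rab27b and Rab37), which serve vesicle release in neurons and gland cells, none of 8 reached 5 FPKM. Most genes did not either, as 5490 of all 22711 reached 5 FPKM in a line, and 8 genes are few. These 8 made 0.756% of the Rab total in PWK-Xi and 0.978% in B6-Xi. Rab3a was the highest of them, at 2.50 FPKM in PWK-Xi and 4.16 FPKM in B6-Xi. Rab25, an epithelial relative of Rab11a, was listed at 0 in both lines, as were Rab42, Rab44 and Rab9b. Rab17 is another epithelial Rab. Rab38, the partner of Rab32 in melanosome formation, had 0.268 FPKM in PWK-Xi and was listed at 0 in B6-Xi. In all, 9 members were above 0 in PWK-Xi only, and Rab19 (0.982 FPKM) was above 0 in B6-Xi only. All genes also read 0 more often in B6-Xi. Of 53 members above 0 in a line, 52 were so in PWK-Xi and 44 in B6-Xi, beside 12907 and 10127 of 13133 genes. Zeros in B6-Xi also occurred at well-expressed genes: among 5065 genes at or above 5 FPKM in PWK-Xi, 4.76% read 0 in B6-Xi.

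Promoters of expressed and low members were set side by side for CG dinucleotides, the bases at which DNA is methylated in mammals and which are dense at the promoters of most widely expressed genes. The RefSeq promoter table (GRCm38.p6, of the B6 reference) held 47 of the 57 members, and the 250 bases before the first listed start were read. Members that reached 5 FPKM in a line had a median of 21 CG (25 genes, range 5 to 39), those between 1 and 5 FPKM 15.5 (10 genes), and those under 1 FPKM in both lines 7.5 (12 genes, range 3 to 40). All genes on the same scale had medians of 17 at 5 FPKM (4363 genes) and 4 under 1 FPKM (9444 genes). In both classes the median of the Rab genes was the higher one. Fewer than 10 CG were found at 3 of the 25 expressed members (Rab9, Rab32 and Rab11b) and at 7 of the 12 low ones, beside 18.6% and 70.4% of all genes. Rab6b and Rab15 had 40 and 27 CG yet stayed under 1 FPKM in both lines. The GC box (GGGCGG or CCGCCC, which overlaps a CG) was found at 16 of the 25 expressed and 8 of the 12 low members, beside 63.0% of all genes at 5 FPKM, 28.8% of all genes under 1 FPKM and 32.9% of the 27025 promoters in the table. Such a match is a count of letters and not a binding site. The 250 bases of 3 members show the range, with each CG in capitals: Rab14 (chr2:35201121-35201370, minus strand, 23 CG), a widely expressed member; Rab9 (chrX:166479868-166480117, minus strand, 7 CG), expressed with few CG; and Rab25 (chr3:88548280-88548529, minus strand, 8 CG), listed at 0 in both lines. Coordinates are those of GRCm38.p6 and belong to the sequences only, since the submitters' processing notes name mm9.
Rab14: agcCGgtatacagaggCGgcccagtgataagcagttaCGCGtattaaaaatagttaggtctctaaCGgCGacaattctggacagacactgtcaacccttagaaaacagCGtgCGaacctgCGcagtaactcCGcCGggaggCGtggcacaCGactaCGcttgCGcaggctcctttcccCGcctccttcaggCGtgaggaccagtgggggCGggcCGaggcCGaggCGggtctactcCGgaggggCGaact
Rab9: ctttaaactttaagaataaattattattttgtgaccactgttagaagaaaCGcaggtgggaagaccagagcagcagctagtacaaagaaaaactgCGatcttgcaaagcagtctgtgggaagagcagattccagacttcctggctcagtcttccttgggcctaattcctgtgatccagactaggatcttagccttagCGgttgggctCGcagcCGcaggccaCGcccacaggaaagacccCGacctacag
Rab25: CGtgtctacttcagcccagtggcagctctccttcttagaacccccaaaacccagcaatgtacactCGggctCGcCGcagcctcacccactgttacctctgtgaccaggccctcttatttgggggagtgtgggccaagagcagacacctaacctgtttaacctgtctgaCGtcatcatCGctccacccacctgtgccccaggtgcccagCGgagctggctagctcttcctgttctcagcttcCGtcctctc
In Rab14 the capitals run through the sequence, whereas in Rab9 they stand mostly near its 3′ end, next to the start site, and in Rab25 they are scattered.

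**Figure D2:**
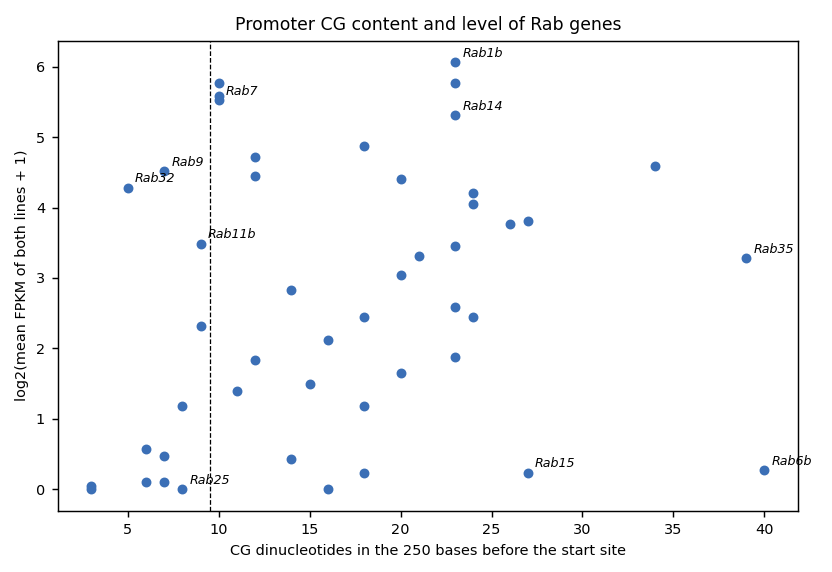
CG dinucleotides in the 250 bases before the RefSeq start site (x axis, count) against log2(mean FPKM of both lines + 1) (y axis) for the 47 Rab genes with a promoter in the table, 1 point per gene; the dashed line separates promoters with fewer than 10 CG. Rab9, Rab32 and Rab11b lie left of the line at high levels, while Rab6b and Rab15 lie to the right at low levels.

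The second question was which members differed in level between the lines. With a pseudocount of 1 FPKM, Rab9 and Rab7, both of the late endosome, were the members past 2-fold. This set depends on the pseudocount: with 0.1 FPKM, Rab2b, Rab13 and Rab32 passed as well, all higher in PWK-Xi. On the scale log2((PWK-Xi + 1)/(B6-Xi + 1)), which understates the change of low genes, 1 of the 29 members that reached 5 FPKM in a line was at least 2-fold higher in PWK-Xi (3.45%, against 17.8% of 5490 genes). At least 2-fold lower was also 1 of 29 (3.45%, against 5.83% of the same genes). For the 28 members above 0 in both lines the median log2 difference was 0.05, beside 0.19 for 5241 such genes, so relative to all genes the members' median was -0.14. Their median absolute difference was 0.34, beside 0.50 for all genes, and 71.4% of them, beside 50.3% of all genes, lay within 0.5 of 0. The log2 differences below are as computed, with the shift of 0.19 left in. After PWK-Xi was divided by the corresponding median ratio, 1.16, the differences of Rab1, Rab4b, Rab5b, Rab10, Rab14 and Rab34 were below 0 instead of above it.

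**Figure D3:**
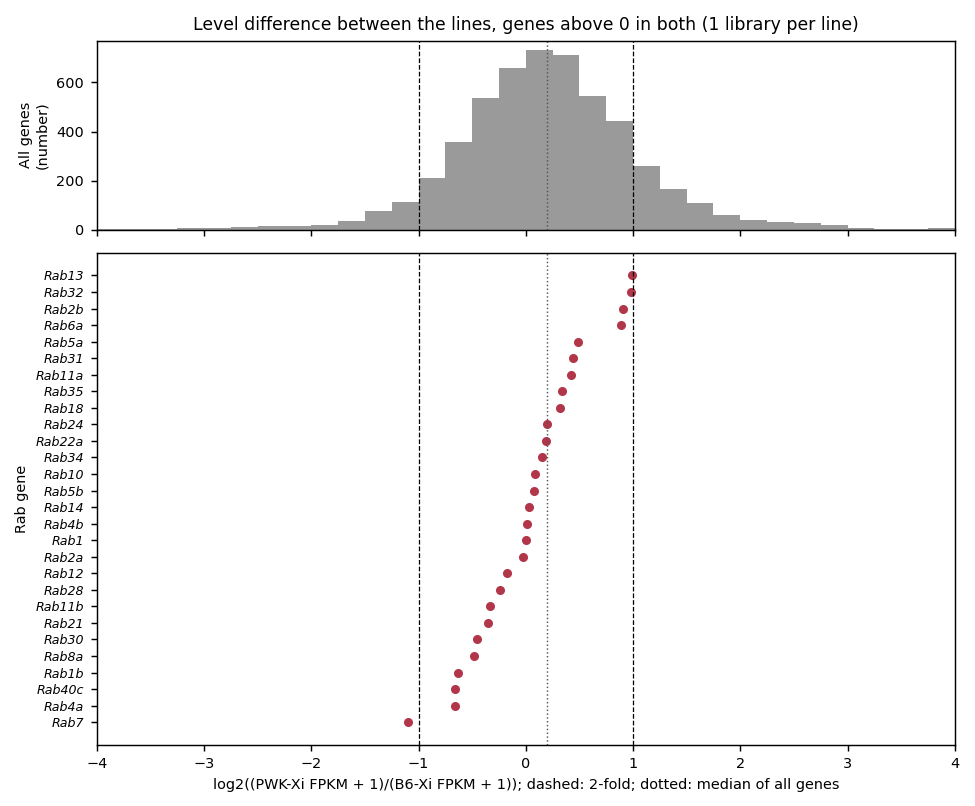
Difference in level between the lines, as log2((PWK-Xi FPKM + 1)/(B6-Xi FPKM + 1)), for 5241 genes that were detected from both lines and reached 5 FPKM in one (top, number of genes per bin of the log2 difference; genes beyond 4 are not drawn) and for the 28 Rab genes among them (bottom, 1 point per gene). Dashed lines mark 2-fold and the dotted line the median of all genes, 0.19; only Rab7, at -1.10, lies beyond a dashed line.

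Members of the early secretory pathway formed the largest part of the family, with 231.3 FPKM in PWK-Xi and 246.6 FPKM in B6-Xi (32.3% and 35.5% of the Rab total). None of 7 tested passed 2-fold, beside 23.7% of all genes. Rab1 and Rab1b, closely related proteins that carry traffic from the endoplasmic reticulum (ER) to the Golgi, were among the 5 most abundant members of both lines. Rab1 had 28.0 FPKM from B6 and 25.7 FPKM from PWK in PWK-Xi, against 25.8 and 27.8 FPKM in B6-Xi, and its totals of 53.7 and 53.6 FPKM were almost equal. Rab1b had 27.1 FPKM from B6 and 24.5 FPKM from PWK in PWK-Xi, against 44.9 and 35.6 FPKM in B6-Xi, a log2 difference of -0.63. Both alleles of Rab1b were lower in PWK-Xi, and the gene made 49.0% of the pair there and 60.0% in B6-Xi. Rab2a, which acts between the ER and the Golgi, had 36.4 and 31.7 FPKM from B6 and PWK in PWK-Xi and 34.4 and 35.1 FPKM in B6-Xi. Its relative Rab2b had 6.83 FPKM in PWK-Xi and 3.18 FPKM in B6-Xi (log2 difference 0.90, ratio with no pseudocount 2.15), so Rab2a held 90.9% of this pair in PWK-Xi and 95.6% in B6-Xi.

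Rab6a, which returns cargo from the Golgi to the ER, stood higher in PWK-Xi on both alleles. It had 13.8 FPKM from B6 and 9.14 FPKM from PWK in PWK-Xi, against 8.16 and 3.81 FPKM in B6-Xi (log2 difference 0.89). Its relative Rab6b, known as a neuronal form, had 0.132 and 0.280 FPKM in PWK-Xi and B6-Xi. Rab18, found on lipid droplets and the ER, had 18.0 FPKM in PWK-Xi and 14.2 FPKM in B6-Xi, and Rab30, a Golgi Rab, had 4.56 and 6.63 FPKM. Rab33b, which binds an autophagy factor at the Golgi, had 2.97 and 2.39 FPKM in PWK-Xi and B6-Xi, and Rab43, another Golgi Rab, had 0.992 and 2.64 FPKM.

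Early endosomal Rabs had 140.9 FPKM in PWK-Xi and 132.4 FPKM in B6-Xi. None of 8 tested passed 2-fold, beside 23.7% of all genes. Rab14, which links the trans-Golgi network and early endosomes, led with 21.9 FPKM from B6 and 17.2 FPKM from PWK in PWK-Xi, against 27.1 and 11.3 FPKM in B6-Xi. The totals, 39.1 and 38.4 FPKM, were close although the alleles were more uneven in B6-Xi. Rab31, which acts on the same route, had 29.2 FPKM in PWK-Xi and 21.3 FPKM in B6-Xi, and its relative Rab22a had 9.62 and 8.31 FPKM. The Rab5 genes drive fusion of early endosomes, and their 3 genes kept the same order in both lines. Rab5a had 11.8 FPKM in PWK-Xi and 8.14 FPKM in B6-Xi, Rab5b had 6.27 and 5.90 FPKM, and Rab5c had 4.90 and 3.96 FPKM. Rab4b, of the rapid recycling pathway, was even between the lines at 20.2 FPKM in PWK-Xi and 20.1 FPKM in B6-Xi, and Rab4a had 3.52 and 6.16 FPKM (log2 difference -0.66). Rab21, which accompanies integrins into the cell, had 13.6 FPKM in PWK-Xi and 17.6 FPKM in B6-Xi, and Rab20, a phagosomal Rab, had 2.65 and 2.48 FPKM.

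Rabs of the recycling endosome and of delivery to the plasma membrane had 131.6 FPKM in PWK-Xi and 121.5 FPKM in B6-Xi. None of 6 tested passed 2-fold, beside 23.7% of all genes. Rab11a, the main Rab of recycling endosomes, had 29.7 FPKM from B6 and 24.2 FPKM from PWK in PWK-Xi, against 21.7 and 18.1 FPKM in B6-Xi. It made 85.8% of the Rab11a, Rab11b and Rab25 family in PWK-Xi and 77.6% in B6-Xi. Rab8a, a Rab of exocytosis and of the primary cilium, had 9.11 and 14.3 FPKM from B6 and PWK in PWK-Xi and 16.5 and 16.5 FPKM in B6-Xi. Rab10, known for delivery of the glucose transporter Glut4 in fat cells, had 23.9 FPKM in PWK-Xi and 22.5 FPKM in B6-Xi, so Rab10 led its family in PWK-Xi, where Rab8a was nearly equal, and Rab8a led in B6-Xi. Rab13, which works at epithelial junctions, was just short of 2-fold at a log2 difference of 0.99, although its ratio with no pseudocount was 2.21, with 4.80 and 5.11 FPKM from B6 and PWK in PWK-Xi and 2.54 and 1.95 FPKM in B6-Xi. Rab35, of recycling to the cell surface, had 9.84 FPKM in PWK-Xi and 7.58 FPKM in B6-Xi, and Rab8b had 1.72 and 2.55 FPKM.

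**Figure D4:**
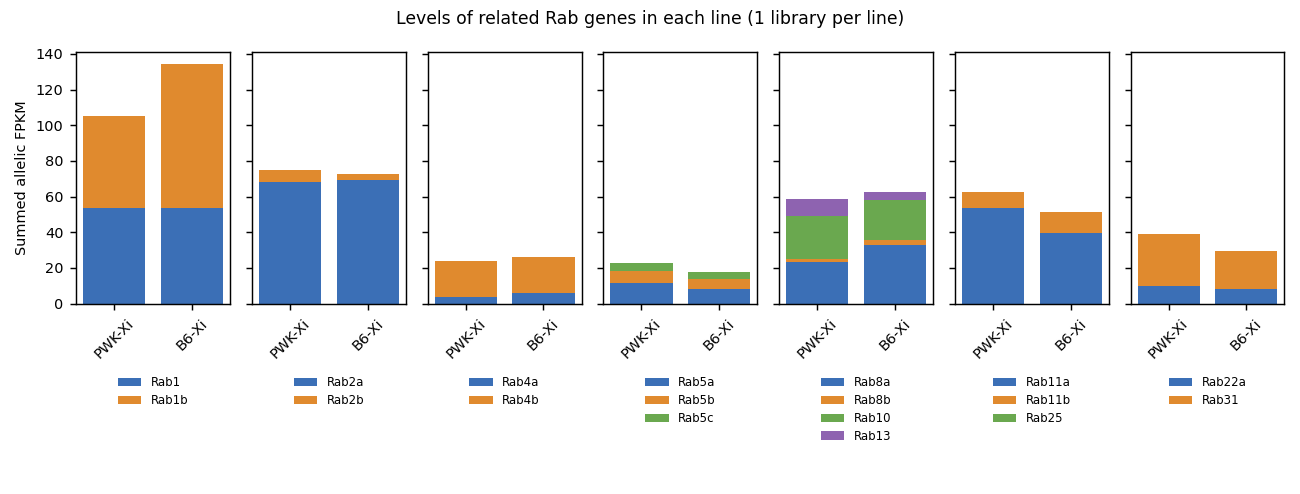
Summed allelic FPKM (y axis) of related Rab genes in 7 families, stacked within a bar, for the PWK-Xi line (left bar of each pair) and the B6-Xi line (right bar), with 1 library each. Rab2a, Rab4b, Rab11a and Rab31 hold most of their family in both lines, Rab1 and Rab1b are near equal in PWK-Xi, and Rab10 and Rab8a are near equal in PWK-Xi while Rab8a leads in B6-Xi.

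Of 15 families of related Rab genes, 14 were above 0 in both lines, and 11 of these had the same leading member in both. The exceptions were the pair Rab1 and Rab1b, the Rab8a family, and the low pair Rab27a and Rab27b, in which Rab27a had 0.572 FPKM in PWK-Xi against 0.117 FPKM in B6-Xi and Rab27b had 0.528 and 1.37 FPKM. The remaining family was Rab9 and Rab9b.

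The late endosome and lysosome held both members past 2-fold at a pseudocount of 1 FPKM. Of 5 tested there, 1 was higher and 1 lower in PWK-Xi, beside 17.8% and 5.83% of all genes. Rab7, which directs late endosomes to fusion with lysosomes, had 15.9 FPKM from B6 and 12.4 FPKM from PWK in PWK-Xi, against 33.7 and 28.2 FPKM in B6-Xi. Both alleles were lower in PWK-Xi, the log2 differences being -1.04 for B6 and -1.13 for PWK, and the total was 28.2 FPKM in PWK-Xi against 61.8 FPKM in B6-Xi (log2 difference -1.10, 2.19-fold higher in B6-Xi with no pseudocount). The 20 nearest measured genes had a median log2 difference of 0.01. A processed pseudogene is annotated for Rab7, and an antisense gene overlaps its exons, so its level and shares are uncertain. Next to this threshold on the outside were Rab4a and Rab40c, each at -0.66.

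Rab9, which helps return lysosomal enzyme receptors from late endosomes to the trans-Golgi network, is X-linked. In PWK-Xi it had 43.7 FPKM, which came only from the B6 copy on the active X, and both alleles were listed at 0 in B6-Xi, so no fold is given, and it counts as past 2-fold only on the scale with the pseudocount. An exact 0 in these files can be a failed estimate, as Vim, an abundant transcript of fibroblasts, was listed at 0 in both lines, so whether Rab9 RNA was absent from B6-Xi cannot be told. Of 172 X-linked genes that reached 5 FPKM in PWK-Xi, 19 read 0 in B6-Xi, Rab9 among them, and of all genes 28, Rab9 included, reached its level in PWK-Xi and were listed at 0 in B6-Xi. The other X-linked members were low. Rab39b, a neuronal Rab, had 0.530 FPKM in PWK-Xi, all from B6, and 2.02 FPKM in B6-Xi, all from PWK. Rab33a had 0.766 FPKM, all from B6, in PWK-Xi and was listed at 0 in B6-Xi. Wherever an X-linked member was above 0, its share from the Xi was 0%, as was the median Xi share of 241 X-linked genes in both lines.

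The other late endosomal members lay within 2-fold. Rab34, which positions lysosomes and takes part in building the primary cilium, had 56.4 FPKM in PWK-Xi and 50.8 FPKM in B6-Xi. Rab24, an unusual Rab of the autophagy pathway, had 13.9 and 12.0 FPKM, and Rab12, which steers the transferrin receptor to degradation, had 11.8 and 13.4 FPKM. Rab32, of melanosomes and other lysosome-related organelles, had 24.8 FPKM in PWK-Xi and 12.1 FPKM in B6-Xi, a log2 difference of 0.98 and so just under 2-fold on this scale, although its ratio with no pseudocount was 2.05. Among the members with less defined routes, Rab28, a Rab of photoreceptors and cilia, had 19.0 FPKM in PWK-Xi and 22.5 FPKM in B6-Xi. Rab23, an inhibitor of Hedgehog signalling, had 4.87 and 3.10 FPKM. The Rab40 proteins belong to ubiquitin ligases, and Rab40c had 3.23 FPKM in PWK-Xi and 5.69 FPKM in B6-Xi, while Rab40b had 0.239 and 3.04 FPKM.

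The third question was how much of each Rab RNA came from each strain's copy. Most autosomal members were expressed from both alleles. For the 23 autosomal members that reached 5 FPKM in each line the median B6 share was 55.0% in PWK-Xi and 55.8% in B6-Xi, beside 52.4% and 50.0% for 3828 autosomal genes. A share outside 25% to 75% occurred at 2 members in PWK-Xi (8.70%, against 7.26% of the 3828 genes) and at 5 in B6-Xi (21.7%, against 17.7%). The share differed by at least 25 points between the lines at 6 members (26.1%, against 19.0%). These proportions lay near those of all genes, as did the median absolute difference of 11.1 points, beside 11.4 points. One and the same allele led in both lines at 13 of the 23 members (56.5%, against 56.7% of all such genes).

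**Figure D5:**
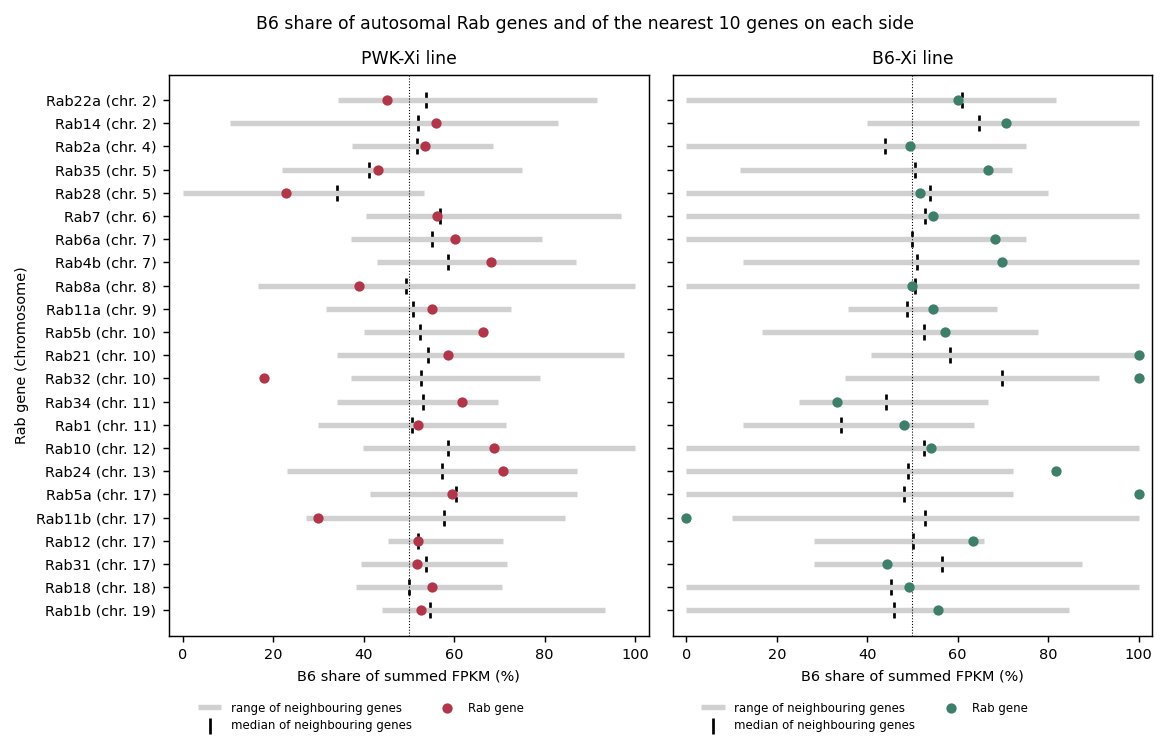
B6 share in percent (x axis) of the 23 autosomal Rab genes that reached 5 FPKM in each line (points), in the PWK-Xi line (left) and the B6-Xi line (right), with 1 library each, ordered by chromosome; grey bars give the range and black ticks the median of up to 10 measured genes on each side. Rab32 lies outside its neighbours' range in both lines, and Rab11b, Rab24 and Rab5a lie outside it in B6-Xi. How many of all genes lie outside such a range was not counted.

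Rab32, on chromosome 10, differed most. It had 4.43 FPKM from B6 and 20.4 FPKM from PWK in PWK-Xi, a B6 share of 17.9%, and 12.1 FPKM from B6 with the PWK allele at 0 in B6-Xi, a share of 100%. The nearest 20 genes had medians of 52.7% in PWK-Xi (range 37.1% to 79.0%) and 69.7% in B6-Xi (range 35.0% to 91.3%), so Rab32 lay outside the range of its neighbours in both lines, on opposite sides. Of the 23 members, 1 lay outside such a range in PWK-Xi and 4 did in B6-Xi. The share of all genes that do so was not counted, so these positions are description only. Rab21, also on chromosome 10, had a share of 58.7% in PWK-Xi, with 7.98 and 5.60 FPKM from B6 and PWK, and of 100% in B6-Xi, where the PWK allele was listed at 0. The neighbours of Rab21 had medians of 54.2% and 58.3%, and 100% was within their range in B6-Xi. The whole of chromosome 10 had medians of 53.5% in PWK-Xi and 66.7% in B6-Xi. Rab5b, the remaining expressed member of chromosome 10, had 66.5% in PWK-Xi and 57.1% in B6-Xi.

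On chromosome 17, whose medians were 53.5% in PWK-Xi and 52.7% in B6-Xi, Rab5a and Rab11b stood at opposite ends in B6-Xi. Rab5a had a share of 59.5% in PWK-Xi, with 7.03 and 4.80 FPKM from B6 and PWK, and of 100% in B6-Xi, with 8.14 FPKM from B6. Rab11b had 30.0% in PWK-Xi, with 2.68 and 6.25 FPKM from B6 and PWK, and 0% in B6-Xi, with 11.5 FPKM from PWK. Rab11b therefore leaned to PWK in both lines. The neighbours of Rab5a reached 72.2% at most in B6-Xi and those of Rab11b reached down to 10.0%, so both lay outside these ranges. Rab12 and Rab31, on the same chromosome, had 52.0% and 51.8% in PWK-Xi and 63.3% and 44.3% in B6-Xi. The annotation (GENCODE M21) names a processed pseudogene each for Rab5a, Rab7, Rab11b and Rab9b. Reads of near-identical copies could not be told apart here, so the levels and shares of Rab5a, Rab7 and Rab11b are uncertain. Only pseudogenes named after a Rab gene were searched, so copies of other members under other names were not looked for.

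Rab28 and Rab34 lay inside the range of their neighbours in both lines. Rab28, on chromosome 5, had 4.35 FPKM from B6 and 14.6 FPKM from PWK in PWK-Xi (22.9%), against 11.7 and 10.9 FPKM in B6-Xi (51.7%). Its neighbours had medians of 34.1% and 54.0%, and the whole chromosome 36.5% and 51.0%. Rab35, on the same chromosome and just under the 25-point threshold, had 43.2% in PWK-Xi and 66.7% in B6-Xi, with neighbours at 41.1% and 50.5%. Rab34, on chromosome 11, had 34.9 FPKM from B6 and 21.5 FPKM from PWK in PWK-Xi (61.8%), against 16.9 and 33.8 FPKM in B6-Xi (33.3%). Its neighbours had medians of 53.0% and 44.3%, and the whole chromosome 54.0% and 40.8%. Rab1, also on chromosome 11, had 52.1% and 48.1% in PWK-Xi and B6-Xi, with neighbours at 50.6% and 34.2%. Rab24, on chromosome 13, leaned to B6 in both lines, with 70.7% in PWK-Xi and 81.8% in B6-Xi, and its share in B6-Xi was above the 72.2% reached by its neighbours.

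Rab10 lies on chromosome 12, whose median B6 share was 52.5% in PWK-Xi and 0% in B6-Xi. Rab10 itself had both alleles in both lines, with 16.5 and 7.44 FPKM from B6 and PWK in PWK-Xi (68.9%) and 12.2 and 10.3 FPKM in B6-Xi (54.2%). It lies at one end of the measured genes of this chromosome, and its 10 neighbours had medians of 58.6% in PWK-Xi and 52.6% in B6-Xi (range 0% to 100%). Rab40b, on chromosome 11, came only from PWK in both lines at 0.239 FPKM in PWK-Xi and 3.04 FPKM in B6-Xi. Its neighbours had median B6 shares of 57.2% in PWK-Xi and 15.4% in B6-Xi.

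Over the 23 members, 10 differed in share by less than 10 points between the lines (43.5%, beside 45.2% of all genes). Rab11a had 55.0% in PWK-Xi and 54.5% in B6-Xi, Rab7 had 56.2% and 54.5%, Rab4b had 68.2% and 69.7%, and Rab2a had 53.5% and 49.5%. For Rab7, lower in PWK-Xi, the shares were close although the levels differed, with the uncertainty from its pseudogene. Across the 23 members the Spearman rho between a member's share and the median of its neighbours was 0.54 in PWK-Xi and 0.31 in B6-Xi, where the points of a line share its library and members of 1 chromosome share neighbours. In B6-Xi 9 of the 23 shares equalled, within 0.001 points, a ratio of whole numbers no larger than 10 (39.1%, beside 28.4% of all such genes), and in PWK-Xi 1 did (4.35%, beside 4.15%). In B6-Xi these were Rab5a, Rab21 and Rab32 (100%), Rab11b (0%), Rab34 (33.3%), Rab8a (50.0%), Rab5b (57.1%), Rab22a (60.0%) and Rab35 (66.7%). The member in PWK-Xi was Rab11b (30.0%). Read depth is unknown, so the number of reads behind these shares cannot be told. Exactly 0% or 100% was the value of 4 members in B6-Xi and of 0 in PWK-Xi, beside 7.76% and 0.627% of all such genes. Of the 57 members, 20 have exons that overlap another annotated gene, 15 of them on the opposite strand (among them Rab5a, Rab6a, Rab7, Rab10, Rab11b and Rab24), and strandedness is not stated in the labels, so those reads could not be told apart.

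The machinery that loads and switches Rabs was read from fixed lists. Of 137 listed regulators and effectors, 44 reached 5 FPKM in either line, of which 6 were at least 2-fold higher in PWK-Xi (13.6%, beside 17.8% of all genes) and 1 was at least 2-fold lower (2.27%, beside 5.83%). Of the higher ones, Rin2 and Tbc1d7 were listed at 0 in B6-Xi, which can be a failed estimate. The median log2 difference of those above 0 in both lines was 0.30, beside 0.19 for all genes. Of the 8 genes for lipid attachment and extraction, 5 were tested and none passed 2-fold, beside 23.7% of all genes. Gdi2, which extracts GDP-bound Rabs from membranes, had 64.6 FPKM in PWK-Xi and 68.4 FPKM in B6-Xi with B6 shares of 56.4% and 59.7%. Chm, the X-linked Rab escort protein gene, had 6.36 FPKM in PWK-Xi and 3.61 FPKM in B6-Xi, only from the active X in each line. Rabac1, a prenylated Rab acceptor, had 61.6 FPKM in PWK-Xi and 117.3 FPKM in B6-Xi (log2 difference -0.92). Rabggtb, the beta subunit of the enzyme that attaches the lipid, had 22.6 and 17.9 FPKM, Rabggta, its alpha subunit, and Rabif were listed at 0 in both lines, and Chml had 1.28 FPKM in PWK-Xi and was listed at 0 in B6-Xi.

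Of 13 tested GAP genes, 4 were at least 2-fold higher in PWK-Xi (30.8%, beside 17.8% of all genes) and 0 at least 2-fold lower (beside 5.83%). Rabgap1 had 7.39 FPKM in PWK-Xi and 1.35 FPKM in B6-Xi (log2 difference 1.84), Tbc1d20, a GAP for Rab1, had 8.85 and 3.45 FPKM (1.15), and Tbc1d2b had 6.71 and 2.70 FPKM (1.06). Tbc1d7, a subunit of the tuberous sclerosis complex with a GAP domain, had 9.18 FPKM in PWK-Xi and was listed at 0 in B6-Xi. Of 13 tested GEF genes, 2 were higher (15.4%, beside 17.8% of all genes) and 1 was lower (7.69%, beside 5.83%). Rin2, an exchange factor for Rab5, had 9.28 FPKM in PWK-Xi and was listed at 0 in B6-Xi. Trappc6b, a subunit of the TRAPP complexes, lies on chromosome 12 and had 20.9 FPKM in PWK-Xi (53.7% from B6) and 9.32 FPKM, all from PWK, in B6-Xi. Rab3il1, an exchange factor for Rab3a, had 2.72 FPKM in PWK-Xi and 6.63 FPKM in B6-Xi (log2 difference -1.04). Of 13 tested effector genes, 0 passed 2-fold in either direction, beside 17.8% of all genes higher and 5.83% lower.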

How the data were processed

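Oligo-dT primers captured polyadenylated RNA for Smart-seq2, per the labels' protocols. StringTie 2.1.1, HISAT2 2.2.0, Trim Galore 0.6.4 and the mm9 build are named in the submitters' processing notes. The method that split reads between the strains is not given in these sources. The authors deposited FPKM per allele for 1 library per line, per the file headers. Depth is unknown, so no counting interval was given.

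Values were computed with pandas 2.3.3, numpy 2.4.6 and scipy 1.17.1 in Python 3.11.15 and drawn with matplotlib 3.10.9; the steps were tested on simulated data. Folds used summed alleles, a pseudocount of 1 and at least 5 FPKM in either line; shares used at least 5 FPKM in both. Chromosome medians and neighbours (up to 10 genes on each side, by the gene order of GENCODE M21 and RefSeq) used at least 1 FPKM in both. Rab1 was matched by hand to Rab1a, for which RefSeq gives it as a synonym. Matching by GENCODE name, RefSeq symbol or an unambiguous RefSeq synonym had not placed it. Named were the 10 most abundant members, those past a threshold or next to one, X-linked members, those of the related families, the regulators past 2-fold and the lipid attachment list, of which 1 gene is not reported here; other members named, and Rin2 and Tbc1d7, were chosen after their values were seen. The members, lists and thresholds were chosen with earlier results of these data known. With 1 library per line there is no test and no p-value. Alternatives covered the pseudocount, the filters on low values, the scaling and chromosomes with skewed shares.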

Additional observations from a re-analysis of the deposited data

Results flagged for a closer look

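In 3 of the 23 autosomal members that reached 5 FPKM in each line, B6 led in one line and PWK in the other, with B6 shares at least 25 points apart; with 1 library per line the difference was not tested. The difference in B6 share, PWK-Xi minus B6-Xi, was -82.1 points for Rab32 (17.9% in PWK-Xi and 100% in B6-Xi). It was -28.8 points for Rab28 (22.9% and 51.7%) and 28.5 points for Rab34 (61.8% and 33.3%). These members lie on chromosomes whose median share was skewed in 1 of the lines. A difference of at least 25 points alone occurred at 26.1% of the 23 members and at 19.0% of 3828 autosomal genes. How many of all genes also changed the leading allele was not counted. The B6-Xi shares of Rab32 and Rab34 were also whole-number ratios of the kind counted above.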

How the results depend on the processing

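No paired analysis was possible because each line has 1 library. The count of members at least 2-fold higher in PWK-Xi was 1 of 29, beside 17.8% of all genes. It became 0 of 28 with genes above 0 in both lines only, beside 14.1% of all genes. With a pseudocount of 0.1 it became 4 of 29 (Rab9, Rab13, Rab2b and Rab32), beside 20.7% of all genes. The count at least 2-fold lower was 1 of 29, beside 5.83% of all genes. It became 2 of 40 with a minimum of 1 FPKM and 2 of 53 with no filter, beside 4.84% and 3.48%. Rab40b then passed beside Rab7. Regulators past 2-fold were 7 of 44, beside 23.7% of all genes. They became 16 of 101 with a minimum of 1 FPKM and 16 of 127 with no filter, beside 22.9% and 16.5%. With a pseudocount of 0.1 they became 12 of 44, beside 27.5%. The median log2 difference of the members was 0.05, beside 0.19 for all genes. It turned to -0.15 when PWK-Xi was divided by 1.16, the median ratio of all genes, which sets all genes to 0. Without the 9 autosomes whose median share lay over 5 points from the autosomal median it was -0.083, beside 0.064. It was 0.025 with a minimum of 1 FPKM and 0.056 with a pseudocount of 0.1, beside 0.17 and 0.21. In each of these settings the members' median lay below that of all genes. The members' median B6 share in PWK-Xi was 55.2%, 55.1% and 55.1%, and in B6-Xi 54.5%, 54.5% and 55.1%, with a minimum of 1 FPKM, with one of 10 FPKM and without the skewed chromosomes. All autosomal genes had medians of 52.7%, 52.4% and 52.4% in PWK-Xi and 50.0%, 50.0% and 51.1% in B6-Xi. Shares outside 25% to 75% in PWK-Xi, 2 of 23, became 4 of 35 at 1 FPKM and 0 of 12 without the skewed chromosomes. All autosomal genes stood at 7.26%, 8.92% and 5.91% in these settings. In B6-Xi, 5 of 23 became 3 of 18 at 10 FPKM and 3 of 12 without those chromosomes. There, all autosomal genes stood at 17.7%, 14.2% and 12.0%. Members whose share differed by at least 25 points, 6 of 23, became 11 of 35 at 1 FPKM and 2 of 12 without those chromosomes. For this measure all autosomal genes stood at 19.0%, 26.3% and 13.5%. For the other alternatives run, counts stayed within 1.5 times.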
